A study of Mus musculus with 2 samples.

Results

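The genes described here encode the transcription factor NRF2 (Nfe2l2), its regulators KEAP1 and BACH1, the enzymes that make and reduce glutathione, the quinone reductase NQO1 and 2 glutathione transferases. The 10 genes were chosen by name for these roles, and all 10 were found among the 52550 gene identifiers of the deposited count tables. Their messenger RNA was measured in RAW264.7 cells, macrophages of a mouse line that Abelson murine leukaemia virus transformed, grown without treatment in 3D culture (1 library) or in 2D culture (1 library). The sources used here do not say how cells were held in 3D. RNA of untreated cells of each kind was taken with TRIzol and made into poly(A) libraries with a kit that marks the strand. Cells of the 3D and 2D libraries are called 3D cells and 2D cells. With 1 library for each culture method, no difference has a replicate check, and no test across replicates or p-value is possible.

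NRF2 is a basic leucine zipper protein that binds antioxidant response elements as a dimer with a small MAF protein and switches on genes for glutathione synthesis and for detoxification. KEAP1 holds NRF2 on a CUL3 ubiquitin ligase that marks it for destruction, and oxidants or electrophiles that modify KEAP1 let NRF2 build up. BACH1 occupies the same elements with small MAF partners as a repressor and leaves them when it binds heme. NRF2 is controlled largely through the stability of its protein, which messenger RNA counts do not record.

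The 3D library held 16652503 counts and the 2D library 14371084. Counts were scaled with TMM factors and are given as TMM-scaled counts per 1000000 (CPM), and genes are called measured where the mean of the libraries is 1 CPM or more. Ratios are of CPM in 3D cells over 2D cells, with exact 95% intervals that cover counting error only and no spread between cultures; the labels name no molecular identifiers, and reads without them are not independent molecules. Of 10 macrophage marker genes, all 10 were measured, at a summed 9492 CPM in 3D cells and 3277 CPM in 2D cells. Of these 10, 6 were at least 2-fold higher, led in level by Lyz2 and Cd68. Ptprc was at least 2-fold lower (ratio 0.368), while Fcgr1 (0.687) and Itgam (0.731) were lower within 2-fold. Over all measured genes, 18.7% passed this size upward and 20.8% downward. Scaled by total counts instead, 5 markers passed it upward and 3 downward, against 5.59% and 36.5%. Adjusted for GC content, length of exons and mean level, 1 passed upward and 0 downward (median log2 ratio 0.12), against 10.5% and 9.75%. Marker lists of fibroblasts, epithelium and lymphocytes reached at most 20 summed counts in either library, and 5 endothelial markers had 40 counts in 3D cells and 35 in 2D cells. The 10 hepatocyte markers had 318 counts in 3D cells and 22 in 2D cells.

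Members of the NRF2 and glutathione set did not share a direction. The glutathione transferase genes Gstp1 and Gstm1, the glutathione synthesis gene Gclm and the inhibitor gene Keap1 were at least 2-fold higher in 3D cells. The repressor gene Bach1 was at least 2-fold lower, and Nfe2l2, Gclc, Gsr and Gss lay within 2-fold. Nqo1 was close to 0 in both libraries. Of 9 measured genes, 4 were thus at least 2-fold higher (44.4%) and 1 was lower (11.1%), against 18.7% higher and 20.8% lower among all 11673 measured genes. The median log2 ratio of the 9 genes was 0.79, against 0.05 for all measured genes. With so few genes, these shares are a description. In bulk RNA, fewer cells with a transcript and less of it in each cell cannot be told apart.

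**Figure D1:**
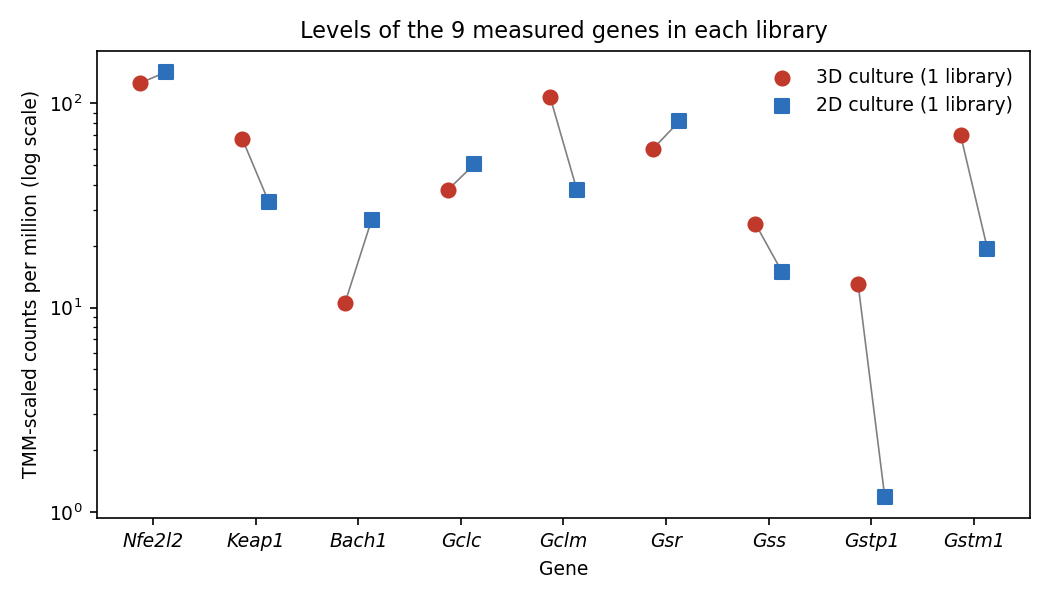
Levels of the 9 measured genes in TMM-scaled counts per 1000000 on a log axis, with the 3D library as circles and the 2D library as squares; each point is 1 library, so there are no error bars. Nfe2l2, at 125 CPM in 3D cells and 142 CPM in 2D cells, had the highest level in both, and Nqo1 (2 counts in 3D cells and 0 in 2D cells) is not drawn.

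Nfe2l2 (ENSMUSG00000015839, chromosome 2, 75675513 to 75704641 of mm10, minus strand), which encodes NRF2, had 1696 counts in 3D cells and 2516 in 2D cells. These correspond to 125 CPM in 3D cells and 142 CPM in 2D cells. The ratio was 0.881 (0.828 to 0.937), a small difference that exceeds counting error under this scaling. Its direction changed in 1 of 12 alternative values, some of which could not move it. There, an adjustment for GC content alone gave a log2 ratio of 0.18 in place of -0.18. Adjustment for GC content, length of exons and mean level gave -0.32, and total counts gave -0.78.

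Keap1 (ENSMUSG00000003308, chromosome 9, 21229730 to 21239361, minus strand), the adaptor that delivers NRF2 to its ubiquitin ligase, had 907 counts in 3D cells and 579 in 2D cells. Its level was 67.0 CPM in 3D cells and 32.7 CPM in 2D cells. The ratio of 2.05 (1.84 to 2.28) lay just past the 2-fold size, and its interval reached below it. The antisense gene Gm16754 overlaps Keap1 and went the other way, with 17 counts in 3D cells and 124 in 2D cells. Of the 50-base words of the Keap1 transcripts, 7.78% also occur in transcripts of other genes on either strand, with Gm16754 as the sole match. The kit marks the strand, but whether the counting used it is not given, so reads of this pair may have been mixed.

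Bach1 (ENSMUSG00000025612, chromosome 16, 87698945 to 87733346, plus strand), the heme-sensing repressor, had 142 counts in 3D cells and 474 in 2D cells. Its level was 10.5 CPM in 3D cells and 26.8 CPM in 2D cells, a ratio of 0.392 (0.322 to 0.473). Bach1 was the gene of the set with the lowest ratio, at -1.35 on the log2 scale. It shares no 50-base word with another annotated gene. The log2 ratio of -1.35 became -0.78 after adjustment for GC content, length of exons and mean level, which is within 2-fold.

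Glutathione is made by joining cysteine to glutamate, the step of glutamate-cysteine ligase, and then adding glycine. The ligase has a catalytic subunit (Gclc) and a modifier subunit (Gclm) that improves its affinity for glutamate and eases its inhibition by glutathione. The genes of the subunits differed in opposite directions. Gclm (ENSMUSG00000028124, chromosome 3, 122245557 to 122270732, plus strand) had 1450 counts in 3D cells and 668 in 2D cells. Its level was 107 CPM in 3D cells and 37.8 CPM in 2D cells, a ratio of 2.84 (2.59 to 3.11). Gclc (ENSMUSG00000032350, chromosome 9, 77754535 to 77794485, plus strand) had 508 counts in 3D cells and 888 in 2D cells. Its level was 37.5 CPM in 3D cells and 50.2 CPM in 2D cells, a ratio of 0.748 (0.669 to 0.835).

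The balance of the subunit genes within a library does not depend on how libraries are scaled. There were 2.85 Gclm counts (2.58 to 3.16) for each Gclc count in 3D cells and 0.752 (0.679 to 0.833) in 2D cells. Per kilobase of merged exons the balance of Gclm to Gclc was 1.71 in 3D cells and 0.450 in 2D cells. The order of the subunit genes was thus opposite in the libraries, and the balance shifted 3.79-fold. Measured per kilobase of the longest transcript, it was 1.75 in 3D cells and 0.461 in 2D cells. Of the 50-base words of Gclm, 4.58% occur in transcripts of other genes, 3.91% in those of the antisense gene Gm17494. The other genes also include the abundant Ppia, with 22897 counts in 3D cells and 23596 in 2D cells, and the part of shared reads in the Gclm ratio was not tested. The antisense gene Gm17494 had 0 counts in 3D cells and 6 in 2D cells, and the pseudogene Gm6061 within Gclm had 0 in both.

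Gss (ENSMUSG00000027610, chromosome 2, 155563181 to 155592810, minus strand), glutathione synthetase, which adds the glycine, had 348 counts in 3D cells and 264 in 2D cells. Its level was 25.7 CPM in 3D cells and 14.9 CPM in 2D cells, a ratio of 1.72 (1.46 to 2.03). Gss overlaps exons of the acetyl-CoA synthetase gene Acss2 on the opposite strand, which had 579 counts in 3D cells and 347 in 2D cells, a ratio of 2.18 (1.91 to 2.50). Of the 50-base words of Gss, 10.3% occur in transcripts of other genes, and 4.15% in those of Acss2. The part of shared reads in the Gss ratio was not tested.

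Gsr (ENSMUSG00000031584, chromosome 8, 33652523 to 33698163, plus strand), glutathione reductase, which uses NADPH to return oxidised glutathione to its reduced form, had 808 counts in 3D cells and 1447 in 2D cells. Its level was 59.7 CPM in 3D cells and 81.8 CPM in 2D cells, a ratio of 0.730 (0.669 to 0.796). The reductase gene and the synthetase gene differed in opposite directions. There were 2.32 Gsr counts for each Gss count (2.05 to 2.64) in 3D cells and 5.48 (4.80 to 6.27) in 2D cells.

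**Figure D2:**
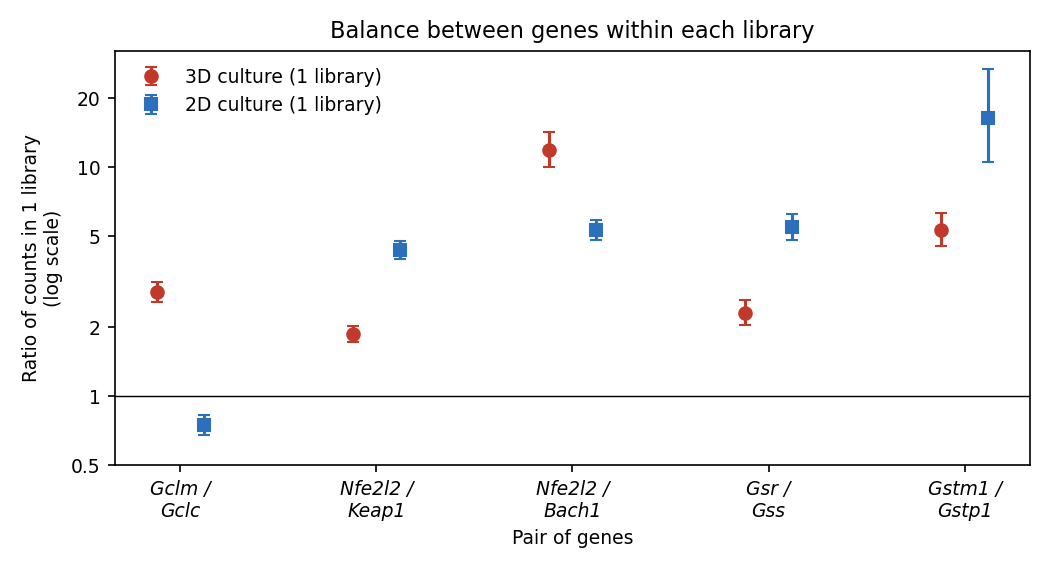
Ratio of the counts of paired genes within each library, on a log axis, with the 3D library as circles and the 2D library as squares; bars are exact 95% intervals for counting error. The Gclm to Gclc ratio lies above 1 in 3D cells (2.85) and below it in 2D cells (0.752).

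Among the regulators, the balance also differed between the libraries. There were 1.87 Nfe2l2 counts for each Keap1 count (1.72 to 2.03) in 3D cells and 4.35 (3.97 to 4.76) in 2D cells. Against the repressor the balance went the other way, with 11.9 Nfe2l2 counts for each Bach1 count (10.1 to 14.3) in 3D cells and 5.31 (4.81 to 5.87) in 2D cells. Adjustment for GC content, length of exons and mean level moved the difference in log2 ratio between Nfe2l2 and Keap1 from -1.22 to -0.53. For Nfe2l2 and Bach1 it went from 1.17 to 0.46, so both differences were then within 2-fold. Per kilobase of merged exons, Nfe2l2 stood above Keap1 and Bach1 in both libraries, at 33.0, 14.3 and 1.70 CPM in 3D cells and 37.5, 6.98 and 4.34 CPM in 2D cells.

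Nqo1 (ENSMUSG00000003849, chromosome 8, 107388225 to 107403206, minus strand), the quinone reductase whose gene is widely used as a readout of NRF2, had 2 counts in 3D cells and 0 in 2D cells. A count of 0 allows up to 3 counts, or 0.170 CPM in 2D cells. No ratio was formed, because both libraries lay at or under 3 counts, and a difference was not detectable at this depth. Nqo1 was the only gene of the 10 that was not measured, although its transcripts share no 50-base word with those of another gene.

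Gstp1 (ENSMUSG00000060803, chromosome 19, 4035407 to 4037985, minus strand) encodes the pi-class transferase that joins glutathione to electrophiles. It had 177 counts in 3D cells and 21 in 2D cells, or 13.1 CPM in 3D cells and 1.19 CPM in 2D cells. The ratio of 11.0 (6.99 to 18.2) was the highest of the 10 genes, and 99.8% of all measured genes had a lower one. The 21 counts in 2D cells make the interval wide. Its near-identical neighbour Gstp2 had 0 counts in both libraries, and Gstp3 had 1 count in 3D cells and 0 in 2D cells.

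The coding sequences of Gstp1 and Gstp2 in the GENCODE M21 transcripts are both 630 bases long and differ at 12 positions (98.1% identity). Of the 50-base words of Gstp1 transcripts, 33.7% also occur in those of Gstp2, so a read from these stretches fits both genes. The first 90 coding bases, which hold 6 of the 12 differences, are shown with the differing bases in capitals, 5′ to 3′.
Gstp1: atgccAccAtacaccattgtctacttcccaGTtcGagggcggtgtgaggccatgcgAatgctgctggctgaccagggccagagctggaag
Gstp2: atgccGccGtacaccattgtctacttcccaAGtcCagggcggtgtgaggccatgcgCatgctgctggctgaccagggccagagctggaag
How the counting treated reads that fit both genes is not stated in the labels. If they were left out, the Gstp1 counts come from the remaining stretches. With the counts of Gstp1, Gstp2 and Gstp3 summed, the ratio was 11.1 (7.03 to 18.3). Gstp2 and Gstp3 had so few counts that this sum could hardly differ from Gstp1 alone. It does not recover reads that were left out. The pseudogene Gstp-ps, which also shares words with Gstp1, is not in the sum.

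Promoters were searched for 2 spellings of the core of the antioxidant response element and related MAF sites, TGACNNNGC and TGANTCAGC, on both strands of RefSeq windows (GRCm38.p6) from 250 bases before to 50 after a gene's start. The spellings overlap, and some 9-letter runs fit both. Windows were held for 8 of the 10 genes, without Gclc and Gsr. A match to TGACNNNGC was found at Nfe2l2 and Gclm, and 12.4% of all 32851 windows hold one. A match to TGANTCAGC was found at Gstp1, and 1.19% of all windows hold one. The matches are shown in their 30-base surroundings, 5′ to 3′ on the gene's strand, with the matched letters in capitals.
Nfe2l2, chr2:75704884-75704913, minus strand: tcagcccaccTGACTCCGCcatgccccgga
Gclm, chr3:122245413-122245442, plus strand: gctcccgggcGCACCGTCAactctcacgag
Gstp1, chr19:4037967-4037996, minus strand: tccaacgtgtTGAGTCAGCatccggggcgg
Gstp2, chr19:4042291-4042320, minus strand: tccaacgtgtTGAGTCAGCatccggggcgg
The Gclm match lies on the opposite strand of the gene. The Gstp1 match begins 74 bases before the RefSeq start and the Gstp2 match 89 bases before its own, and the 30 bases are the same letters. The GENCODE M21 bounds used for positions reach farther upstream, so both matches lie wholly or mostly inside these genes as GENCODE draws them. The genes with these same 30 bases had 177 (Gstp1) and 0 (Gstp2) counts in 3D cells, and 21 (Gstp1) and 0 (Gstp2) in 2D cells. A match describes letters in a window and is not evidence of binding.

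Gstm1 (ENSMUSG00000058135, chromosome 3, 108012255 to 108017973, minus strand), a mu-class transferase, had 942 counts in 3D cells and 344 in 2D cells. Its level was 69.6 CPM in 3D cells and 19.5 CPM in 2D cells, a ratio of 3.58 (3.16 to 4.06). Of the 50-base words of Gstm1, 18.9% occur in transcripts of other genes, with the pseudogene Gstm2-ps1 as the largest holder. Gstm2-ps1 had 18 counts in 3D cells and 2 in 2D cells. The measured relatives were also higher in 3D cells, with ratios of 3.87 (2.45 to 6.29) for Gstm2, 2.27 (1.501 to 3.48) for Gstm4 and 3.35 (2.20 to 5.21) for Gstm5. Gstm1 held 80.6% of the counts of Gstm1 to Gstm7 in 3D cells and 78.2% in 2D cells, and their sum had a ratio of 3.47 (3.11 to 3.88).

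Both transferase genes are also abundant in mouse liver, and the summed level of hepatocyte markers was higher in 3D cells. The 10 hepatocyte markers summed to 23.5 CPM in 3D cells and 1.24 CPM in 2D cells. Of these, 2 were measured, Alb and Ahsg. Alb had 232 counts in 3D cells and 8 in 2D cells, and Ahsg had 38 in 3D cells and 1 in 2D cells. Apoa2 went the other way, with 2 counts in 3D cells and 11 in 2D cells, and the transferrin gene Trf had 0 in both. Gsta3, an alpha-class transferase gene abundant in liver, had 66 counts in 3D cells and 1 in 2D cells, a ratio of 86.3 with an interval from 15.0 to 3458. The part of hepatocyte transcripts in the ratios of Gstp1 and Gstm1 was not tested.

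Ordered by level per kilobase of merged exons, the genes of the 3D library ran from Gstm1 (47.3 CPM) through Nfe2l2 (33.0), Gsr (21.7), Gclm (17.0), Keap1 (14.3), Gclc (9.97), Gstp1 (8.45), Gss (4.35) and Bach1 (1.70) to Nqo1 (0.0952). In the 2D library the order was Nfe2l2 (37.5 CPM), Gsr (29.7), Gclc (13.3), Gstm1 (13.2), Keap1 (6.98), Gclm (6.004), Bach1 (4.34), Gss (2.52) and Gstp1 (0.767), with Nqo1 at 0. There is no spread over samples to say which neighbours differ. Per kilobase of the longest transcript, Gstp1 moved above Gclc in 3D cells, while Gstm1 moved above Gclc and Gss above Bach1 in 2D cells. With 2 libraries a pattern is a single ratio, so no gene was sought for likeness to these.

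The ratios of these genes have to be read against a trend along GC content, which runs through the whole comparison. Of the variance of log2 ratios among measured genes, 32.2% went with GC content alone. Among measured genes sorted into 10 bins by the GC content of the longest transcript, Keap1 (58.0% GC) fell in the top bin, above 57.6% GC, where 48.8% of genes passed 2-fold upward in 3D cells. Gclm (42.1% GC) fell in the bin from 41.3% to 43.8%, where 1.11% of 1167 genes passed 2-fold upward and 44.7% downward. Gstp1 (55.8% GC) and Gstm1 (53.6% GC) fell in bins where 39.6% and 33.2% of genes passed 2-fold upward. Bach1, Nfe2l2 and Gclc shared a bin with a median log2 ratio of -0.33, in which 23.9% of genes were at least 2-fold lower.

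**Figure D3:**
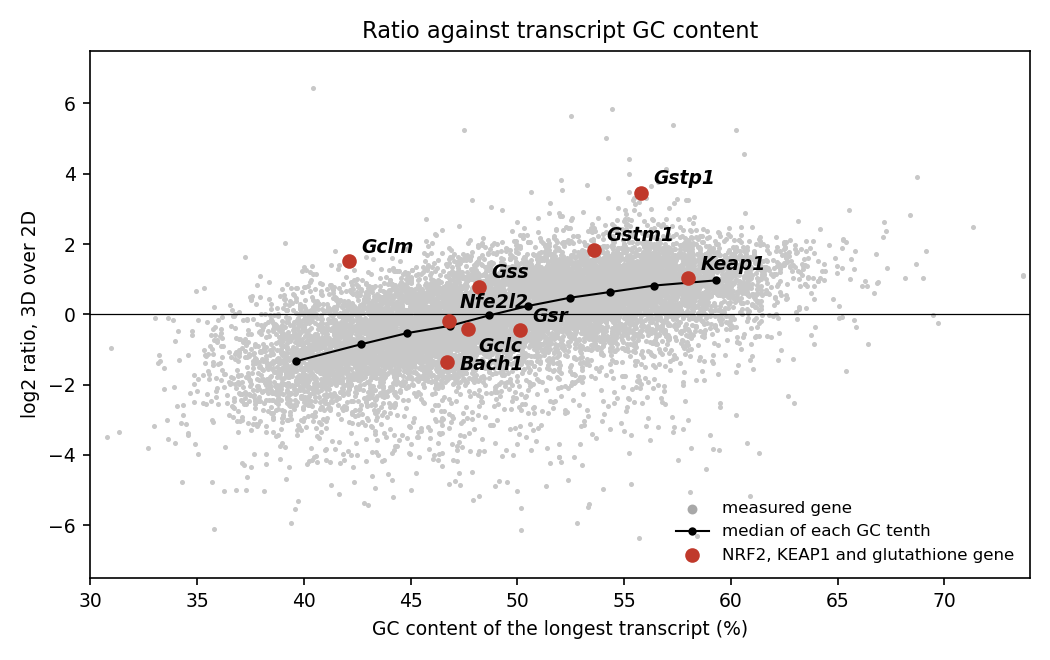
The log2 ratio of the 3D over the 2D library against the GC content of the longest transcript, with measured genes as grey points, the median of each of 10 GC bins as a black line and the 9 measured genes in red. Gclm lies far above the line (log2 ratio 1.504 in a bin with a median of -0.86), while Keap1 lies close to it (1.03 in a bin with a median of 0.96).

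After adjustment for GC content, length of exons and mean level, where 0 is the value fitted for genes of like properties, the log2 ratio of Gclm was 2.25, that of Gstp1 2.93 and that of Gss 1.14. These 3 genes were then at least 2-fold higher, against 10.5% of all measured genes, and 0 were at least 2-fold lower, against 9.75%. Keap1 came to 0.20 and Gstm1 to 0.92, within 2-fold. The genes below 0 were Gsr (-0.93), Bach1 (-0.78), Gclc (-0.38) and Nfe2l2 (-0.32). Between the subunit genes Gclm and Gclc, the difference in log2 ratio was 1.92 before and 2.63 after adjustment. Adjustment for GC content alone instead put Gstm1 (1.36) past 2-fold and Gss (0.95) within it.

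Scaling moved all 9 ratios together. Under total counts, log2 ratios were 0.60 lower than under TMM, and the median of all measured genes was -0.56. Gstp1 (2.86) and Gstm1 (1.24) then stayed at least 2-fold higher, against 5.59% of all measured genes, while Gclm (0.91) and Keap1 (0.44) did not. Bach1 (-1.95), Gsr (-1.05) and Gclc (-1.02) were at least 2-fold lower, against 36.5% of all measured genes. Scaled to 23 reference genes, 2 of the 9 were at least 2-fold higher, against 6.82% of all measured genes, and 1 was lower, against 33.8%. Over all measured genes, 657 were higher and 4292 lower by 2-fold under total counts, against 2181 and 2426 under TMM. The summed level of the 10 genes changed sides: it was 419 counts per 1000000 total counts in 3D cells and 501 in 2D cells, but 516 CPM in 3D cells and 407 CPM in 2D cells under TMM.

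**Figure D4:**
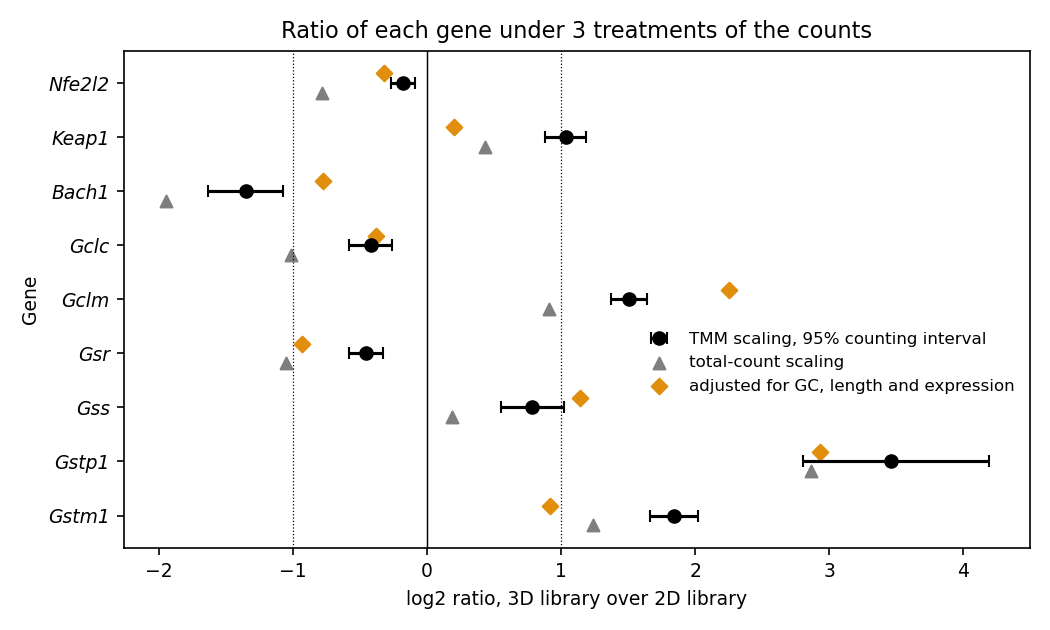
The log2 ratio of the 3D over the 2D library for 9 genes, as circles under TMM scaling with 95% counting intervals, as triangles under total counts and as diamonds after adjustment for GC content, length of exons and mean level; dotted lines mark 2-fold. Gstp1 lies past 2-fold in all 3 treatments, and Gclm ranges from 0.91 under total counts to 2.25 after adjustment.

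The rest of the pathway was followed in 103 further genes in 8 lists. The counts of each list stand against 18.7% higher and 20.8% lower by 2-fold over all measured genes under TMM, 5.59% and 36.5% under total counts, and 10.5% and 9.75% after the full adjustment. Among the partners and relatives of NRF2, 4 of 7 genes were measured, with 1 higher by at least 2-fold, 0 lower and a median log2 ratio of -0.07. Their direction depended on the treatment, with 0 higher and 1 lower under total counts, and 0 higher and 2 lower with a median of -0.89 after adjustment. The small MAF gene Maff had 24.2 CPM in 3D cells and 10.8 CPM in 2D cells, and Mafg, named after its value was seen, had 58.1 CPM in 3D cells and 113 CPM in 2D cells. Nfe2l1, which encodes the related factor NRF1, had 166 CPM in 3D cells and 218 CPM in 2D cells.

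Of 13 genes for NRF2 turnover, all measured, 6 were at least 2-fold higher and 1 lower in 3D cells, with a median log2 ratio of 0.97. Under total counts the balance turned round, with 2 higher and 4 lower, and after adjustment 4 were higher and 0 lower with a median of 0.21. Sqstm1, whose product p62 draws KEAP1 into autophagy, had 1877 CPM in 3D cells and 385 CPM in 2D cells, a ratio of 4.88 (4.75 to 5.01). Dpp3, whose product can displace NRF2 from KEAP1, had a ratio of 3.12 (2.90 to 3.36). The lower gene was Cul3, the scaffold of the KEAP1 ligase, with 50.1 CPM in 3D cells and 109 CPM in 2D cells, a ratio of 0.461 (0.422 to 0.504). Fully adjusted log2 ratios were 0.82 for Sqstm1, 0.85 for Dpp3 and -0.10 for Cul3, within 2-fold for each. With GC content alone adjusted, they were 1.77 for Sqstm1, 0.94 for Dpp3 and 0.34 for Cul3. Keap1 and Cul3, whose products act together, thus differed in opposite directions before adjustment. Both lay near 0 after the full adjustment.

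Among genes that supply cysteine and glutamate, 0 of 6 measured ones were higher by 2-fold and 1 was lower, with a median log2 ratio of -0.93. Under total counts 0 were higher and 4 lower, and after adjustment 0 were higher and 2 lower. The lower gene under TMM was Cth, cystathionine gamma-lyase, which makes cysteine, with 36 counts in 3D cells and 292 in 2D cells, a ratio of 0.161 (0.111 to 0.228). The cystine importer gene Slc7a11, named after its value was seen, had 41.8 CPM in 3D cells and 79.7 CPM in 2D cells, a ratio of 0.524 (0.474 to 0.578), with an adjusted log2 ratio of 0.32.

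Of 6 measured glutathione peroxidase and glutaredoxin genes, 4 were higher by 2-fold and 0 lower (median log2 ratio 1.05). That count was 1 under total counts and 2 after adjustment, with 0 lower in both. Gpx1, which reduces hydrogen peroxide, had 418 CPM in 3D cells and 209 CPM in 2D cells. Its log2 ratio was -0.67 after the full adjustment and 0.25 with GC content alone adjusted. Gpx4, which reduces lipid peroxides, had a ratio of 3.55 (3.38 to 3.73) and Glrx3 one of 2.47 (2.35 to 2.59), with adjusted log2 ratios of 0.11 and 1.23. Of 24 other transferase genes, 11 were measured, with 5 higher and 1 lower (median 0.44), or 3 and 1 under total counts and 4 and 1 after adjustment. The lower one was Hpgds, a prostaglandin D synthase of the transferase family, at 37.3 CPM in 3D cells and 172 CPM in 2D cells. Of 11 measured genes for glutathione breakdown and transport, 4 were higher and 2 lower (median 0.17), or 4 and 3 under total counts and 2 and 1 after adjustment. Those transport genes include the mitochondrial glutathione carriers Slc25a39, with a ratio of 3.15, and Slc25a40, with a ratio of 0.298, and their adjusted log2 ratios were 0.06 and -0.21.

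NADPH is the reductant that Gsr uses. The list for its supply holds G6pdx, Pgls, Pgd, Tkt, Taldo1, Me1 and Idh1. The products of Pgls, Tkt and Taldo1 belong to the pentose phosphate pathway but do not make NADPH themselves. All 7 genes were measured, with 6 at least 2-fold higher, 0 lower and a median log2 ratio of 1.68. The gene within 2-fold was Idh1, with a ratio of 1.40. Under total counts 4 of the 7 were higher, and after adjustment 1 was, with a median of 0.75. Of 19 other NRF2 targets, all measured, 10 were higher by at least 2-fold and 0 lower, with a median log2 ratio of 1.26. Under total counts 7 of the 19 were higher, and after the full adjustment 5 were, with a median of 0.55. With GC content alone adjusted, 11 of the 19 were higher and 0 lower. The ferritin heavy chain gene Fth1 was the most abundant of the 19, at 18980 CPM in 3D cells and 5245 CPM in 2D cells. Its fully adjusted log2 ratio was 0.27, and it was 1.79 with GC content alone adjusted. The heme oxygenase gene Hmox1 had the highest ratio of the 19, 12.77 (12.35 to 13.2), with an adjusted log2 ratio of 1.97. Its level was 2829 CPM in 3D cells and 222 CPM in 2D cells. Under TMM, ratios below 1 were found for 4 of these 19 genes and for 0 of the 7 for NADPH supply. Among all 11673 measured genes, 5628 had a ratio below 1. Of the 4 targets, Prdx1 (0.996), Osgin1 (0.974) and Nqo2 (0.882) had counting intervals that include 1, while that of Ugdh (0.763) did not. Gsr (0.730) and Gclc (0.748) also had intervals below 1. These directions are those under TMM. Total-count scaling lowers each log2 ratio by 0.60, so ratios near 1, and that of Idh1 (log2 ratio 0.48 under TMM), then fall below 1.

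**Figure D5:**
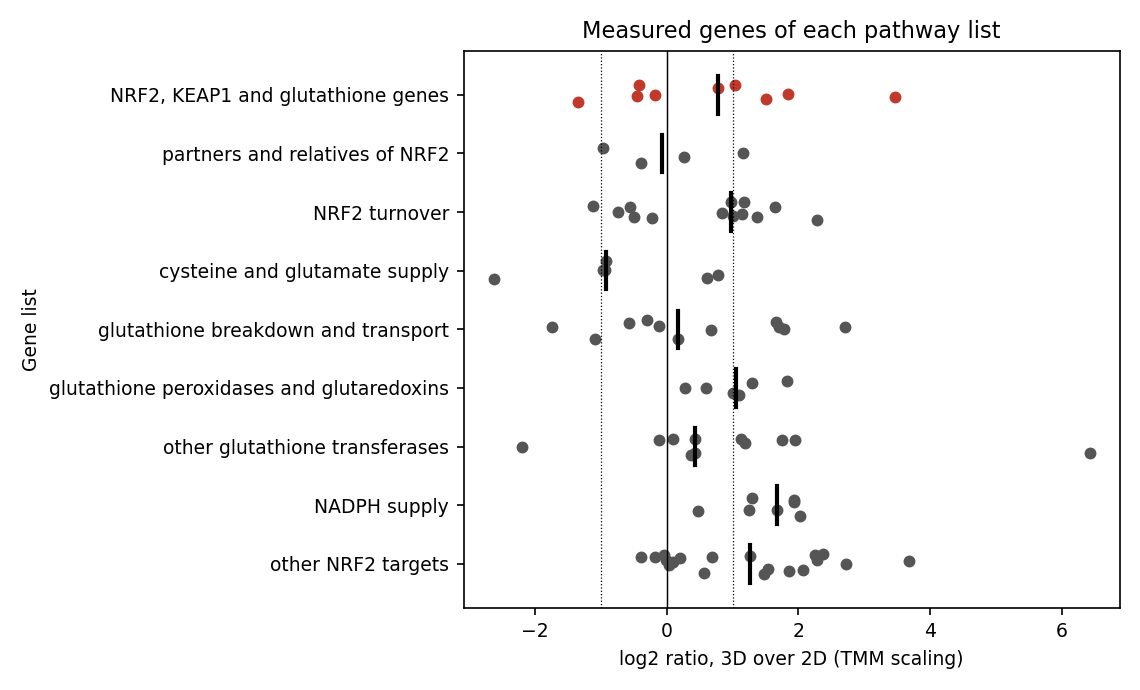
The log2 ratio of the 3D over the 2D library (TMM scaling) for each measured gene of 9 gene lists, with the genes described here in red, a black bar at the median of each list and dotted lines at 2-fold. The medians range from -0.93 for cysteine and glutamate supply to 1.68 for NADPH supply, and the 9 red points run from -1.35 (Bach1) to 3.46 (Gstp1).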

How the data were processed

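The authors deposited whole-number counts of reads per Ensembl gene for 1 library of 3D and 1 of 2D culture; per the submitters' processing notes they used Trimmomatic, HISAT2 and HTSeq on mm10, with versions, annotation release and strand option not given in the sources used here. Per the labels' protocols, TRIzol was used for RNA and a TruSeq stranded mRNA kit for libraries. Symbols, positions, exon lengths and GC content came from GENCODE M21 (99.7% of 52550 identifiers matched). TMM factors from edgeR 4.0.16 (0.813 for the 3D library, 1.231 for the 2D library) scaled the counts, and ratios have Clopper-Pearson intervals (scipy 1.17.1) conditional on the sum of the counts. The adjusted log2 ratio is the residual of natural cubic splines with 4 degrees of freedom in GC content, length of exons and mean level (patsy 1.0.2); it removes any biological difference along these properties too. Size factors of DESeq2 1.42.0, other scalings, filters and sizes were tried as alternatives. The code was tested on simulated data. The genes, lists and alternatives were chosen with earlier results of these data known. All 10 genes are named; of each other list, up to 4 genes at least 2-fold different, ranked by the interval bound nearest to 1, and the most abundant may be named, besides Gstp and Gstm paralogs and genes that complete a count.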

Additional observations from a re-analysis of the deposited data

How the results depend on the processing

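The number of these genes at least 2-fold higher (4 of 9) was 3 with the interval bound, with thinning, with protein-coding genes only and with either adjustment, 2 under total counts and under scaling to 23 reference genes, and 1 at a 4-fold size. After the full adjustment the 3 higher genes were Gclm, Gstp1 and Gss. With GC content alone adjusted they were Gclm, Gstp1 and Gstm1. The number at least 2-fold lower (1) was 3 under total counts and 0 at a 4-fold size and with either adjustment. The median log2 ratio (0.79) was 0.19 under total counts, 0.25 under the reference genes, 0.20 after the full adjustment and 0.23 after adjustment for GC content alone. Over all measured genes, 2181 were higher and 2426 lower. The reference genes gave 796 and 3945, total counts 657 and 4292, the full adjustment 1227 and 1138, and GC content alone 1514 and 1462. No filter gave 2676 and 3939, a 1.5-fold size 3701 and 3552, and a 4-fold size 260 and 779. The interval bound gave 1533 and 1680 of 11673 genes, thinning 2048 and 2567 of 11695, and protein-coding genes only 1725 and 2148 of 10559. Over 12 alternative values each, Keap1, Gclm, Gss, Gstp1 and Gstm1 stayed above 0 and Bach1, Gclc and Gsr below it, while Nfe2l2 ranged from -0.78 to 0.18. Among these alternatives, the changes of filter could not move a ratio, and the summing of paralogs could move only those of Gstp1 and Gstm1. Gclm ranged from 0.91 to 2.50, Gstp1 from 2.69 to 3.67, Gstm1 from 0.92 to 1.86 and Keap1 from 0.20 to 1.06. The counts of the other pathway lists shifted as well, and those under total counts and after the full adjustment are given with each list. Counts under the other alternatives are mostly not given. With thinning, for example, 4 genes of cysteine and glutamate supply were at least 2-fold lower in place of 1. The cause of these shifts was not tested. Depth limits Nqo1 and, in the 2D library, Gstp1. No paired analysis was possible because each culture method has 1 library, and leaving out a library would leave no comparison.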
